A study of Bos taurus with 2 samples.

Results

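The 7 genes KCNH7, GDA, RADX, BCAS1, FAM151A, ACOT11 and GPLD1, which split between blastoid and embryo on the trophoblast side, were followed through every class of nuclei in a bovine blastoid library and a day 8 blastocyst library. They were chosen by their measured blastoid-to-blastocyst ratio in nuclei resembling trophectoderm, which was among the highest for the first 4 and among the lowest for the last 3. These 7 of the 35643 listed features each occurred once by symbol in both libraries. The ratio in trophectoderm-like nuclei is therefore a description, and the open question was whether the gap was limited to those nuclei. It was not for FAM151A, ACOT11 and GPLD1, whose log2 ratios of blastoid over blastocyst lay between -6.76 and -4.79 inside and outside the class, with sums under 3 UMIs set to 3. RADX alone went the other way outside it, a direction that turned under 2 other rules for naming clusters. Those rules put the blastoid trophectoderm-like cluster itself outside. KCNH7 owed 94.7% of its UMIs in the blastoid class to 4 nuclei that held almost no trophectoderm factor RNA.

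The blastoids, structures that resemble a blastocyst, were aggregated from 8 bEPSCs, 8 bXEN cells and 16 bTSCs (bovine expanded potential, extraembryonic endoderm and trophoblast stem cells) in each microwell. Feeder cells were depleted first, and the ACL medium held N2, B27, LIF, ActivinA, Chir99021 and the CEPT cocktail. The comparison sample was bovine (Bos taurus) blastocysts at day 8. Both carry the genotype label WT, both were frozen before nuclei were isolated, and each group has 1 library, so no p-value is possible and a gap describes these libraries. How many structures or embryos were pooled is not given in the sources used here.

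Trophectoderm is the outer epithelium of the blastocyst and founds the placenta, while the inner cells give epiblast and hypoblast. GATA2, GATA3 and TFAP2A are transcription factors of the trophectoderm. GDA is guanine deaminase, which converts guanine to xanthine in purine breakdown. RADX binds single-stranded DNA at replication forks. BCAS1 is best known from young myelinating oligodendrocytes, and KCNH7 is a voltage-gated potassium channel of the ERG branch of the ether-a-go-go family. ACOT11 hydrolyses fatty acyl-CoA to free fatty acid and CoA, and GPLD1 is a phospholipase D that cuts proteins from their glycosylphosphatidylinositol (GPI) anchor. FAM151A has no role given here.

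After filtering, 1914 blastoid barcodes with 7481006 UMIs (unique molecular identifiers, here counted RNA molecules) and 827 blastocyst barcodes with 6849933 UMIs remained, and 1 barcode occurred in both libraries. The trophectoderm-like class had 154 blastoid nuclei (median 14620 UMIs) and 235 blastocyst nuclei (median 8710 UMIs). In the blastocyst, 405 nuclei were hypoblast-like (median 7665 UMIs) and 69 epiblast-like (median 10163 UMIs). The epiblast-like name rested on 5 epiblast markers with NANOG at 125 CPM, against 3 hypoblast markers, and HNF4A stood at 579 CPM and GATA6 at 588 CPM there, beside 541 CPM and 989 CPM in hypoblast-like nuclei. This class held 13 nuclei with at least 1000 or at least 200 genes per barcode and had no name when 2 times as many markers were required. In the blastoid, 140 nuclei (median 10993.5 UMIs) had too few markers of any lineage for a name, and NLGN1, DCC and AUTS2 were among their leading genes. The other 1620 blastoid and 118 blastocyst barcodes were shallow, with medians of 1926 and 1653.5 UMIs, and ribosomal protein genes took 15.8% and 4.60% of their UMIs. The name of the blastoid class was narrow. It had 6 trophectoderm markers above the other clusters (GATA2, GATA3, TFAP2A, TFAP2C, TEAD4 and TEAD3) and 5 epiblast markers (DPPA2, DPPA4, ESRRB, TFCP2L1 and DNMT3B), while NANOG had 1 UMI in it. The shallow blastoid barcodes had 13 trophectoderm markers above the other clusters, CDX2, KRT8, KRT18 and ASCL2 among them, and a summed level of the 24 markers of 13538 CPM against 4091 CPM in the trophectoderm-like class, but were not named because of their depth and ribosomal share. GATA2 stood at 335 CPM (UMIs scaled to a class total of 1000000) in the blastoid class and 477 CPM in the blastocyst class.

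The genes high in the embryo are described first. FAM151A (ENSBTAG00000019801) had 727 UMIs in the blastocyst trophectoderm-like sum, or 314 CPM (exact Poisson 95% interval 292 to 338), and 7 UMIs or 2.89 CPM (1.16 to 5.96) in the blastoid one. In the other blastocyst classes it stood at 137 CPM in hypoblast-like nuclei, 59.2 CPM in epiblast-like nuclei and 885 CPM in shallow barcodes. The unnamed blastoid nuclei had 1.05 CPM and the shallow blastoid barcodes 9.79 CPM. Each blastocyst class was thus above each blastoid class for this gene. All intervals here and below cover counting error only.

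The high value in shallow blastocyst barcodes came from 1 barcode, which held 261 of the 373 UMIs and was the only blastocyst barcode over 40000 UMIs, at 80592. Without it FAM151A stood at 329 CPM (271 to 395) there, an interval that includes the trophectoderm-like level of 314 CPM.

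ACOT11 (ENSBTAG00000039686) had 1392 UMIs in blastocyst trophectoderm-like nuclei, or 602 CPM (571 to 634). It had 809 UMIs in hypoblast-like nuclei, 81 in epiblast-like nuclei and 31 in shallow barcodes, which gave 239 CPM, 112 CPM and 73.6 CPM. In the blastoid, 16, 5 and 9 UMIs were counted in trophectoderm-like nuclei, unnamed nuclei and shallow barcodes, or 6.61 CPM, 2.64 CPM and 2.84 CPM. The intervals of the 3 blastoid classes overlapped, and all lay below those of the blastocyst classes.

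GPLD1 (ENSBTAG00000004982) had 345 UMIs in blastocyst trophectoderm-like nuclei, or 149 CPM (134 to 166). Hypoblast-like nuclei stood at 66.7 CPM, shallow barcodes at 66.4 CPM and epiblast-like nuclei at 19.3 CPM. The blastoid classes had 6, 4 and 2 UMIs, or 2.48 CPM, 2.11 CPM and 0.632 CPM. Here, too, no blastoid class reached a blastocyst class.

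**Figure D1:**
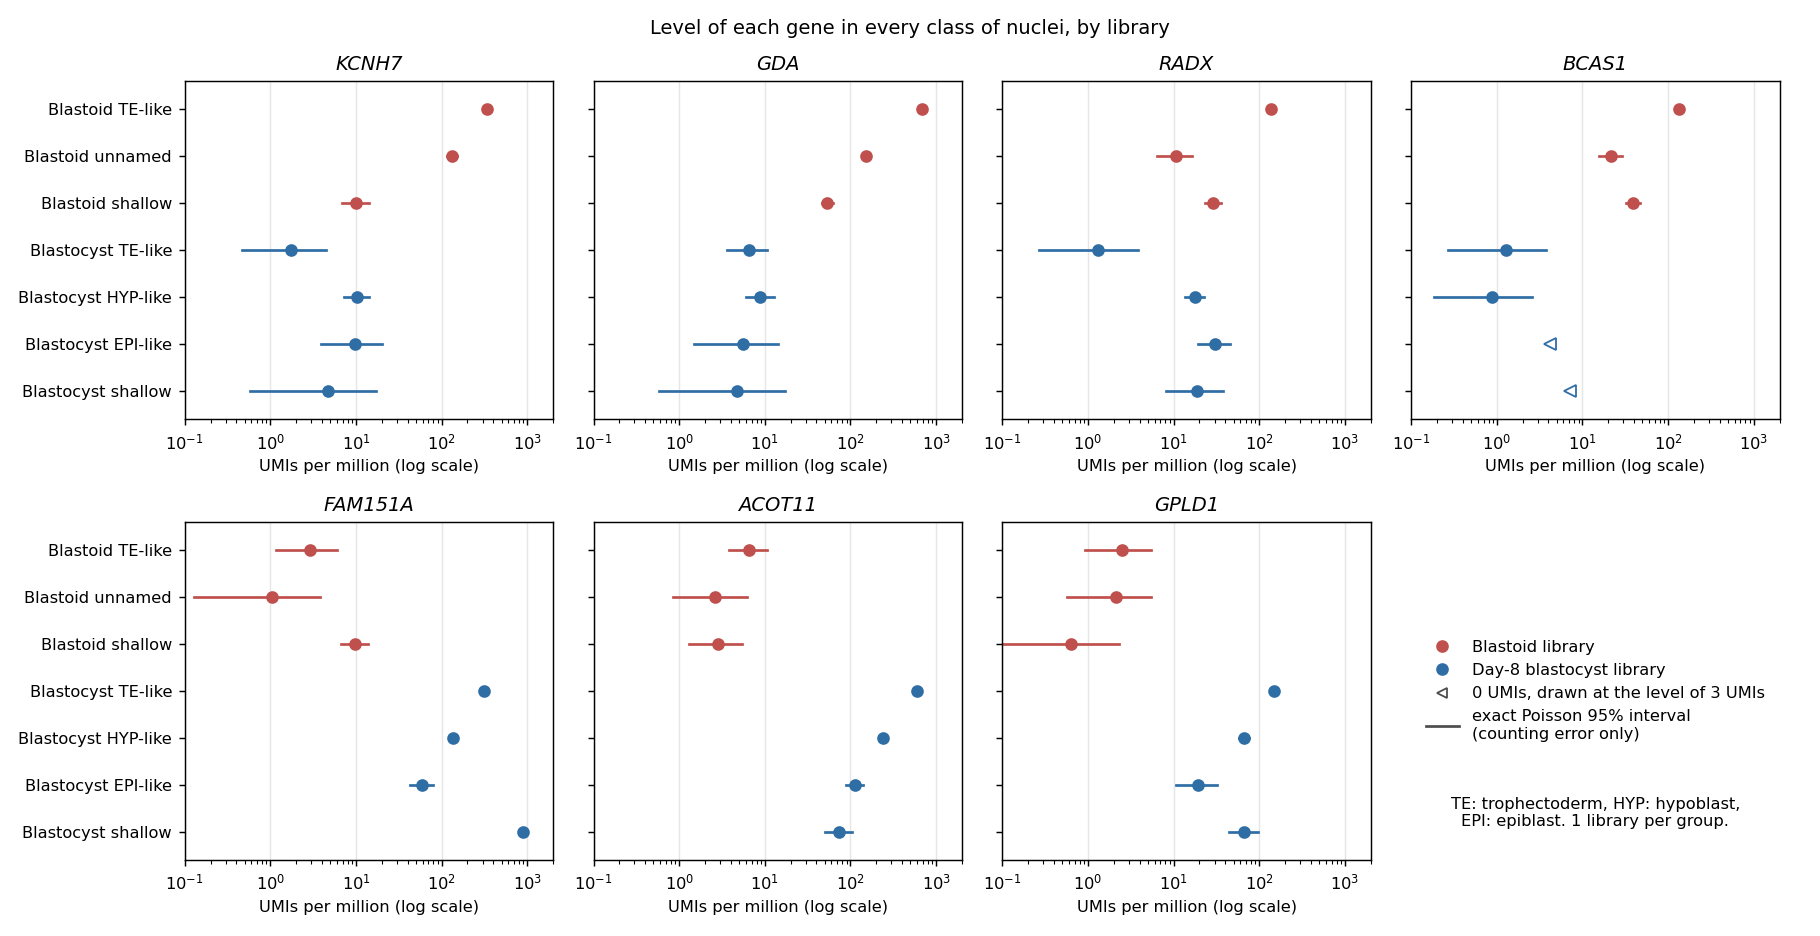
Level of each gene in CPM (log axis) in every class of nuclei, blastoid in red and blastocyst in blue, with exact Poisson 95% intervals and classes at 0 UMIs drawn as open triangles at the level of 3 UMIs. FAM151A, ACOT11 and GPLD1 are high in every blastocyst class and low in every blastoid class, whereas RADX at 137 CPM in blastoid trophectoderm-like nuclei stands at 10.5 CPM in the unnamed nuclei, below the 17.7 and 30.3 CPM of the hypoblast-like and epiblast-like classes.

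Among the 3 named embryo classes the same genes were highest in trophectoderm-like nuclei but not limited to them. Hypoblast-like nuclei carried 43.6% of the trophectoderm-like level of FAM151A (38.7% to 49.0%), 39.7% for ACOT11 (36.3% to 43.3%) and 44.7% for GPLD1 (37.6% to 53.0%). The same share was 1.55% for GATA2, 16.7% for GATA3 and 1.00% for TFAP2A. Epiblast-like nuclei carried 18.9%, 18.5% and 12.9% for the 3 genes, beside 1.16% for GATA2 and 8.93% for GATA3, with 0 UMIs of TFAP2A. There GPLD1 (7.00% to 22.0%) and GATA3 (4.84% to 15.1%) rested on 14 UMIs each, and their intervals overlapped. In hypoblast-like nuclei the genes kept more of their trophectoderm-like level than these factors did in the same library. This is a description, because the trophectoderm-like values chose the genes. GATA2 and GATA3 were also among the markers that named the class, so a low share elsewhere is partly built in for them.

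UMIs of the 3 genes were also counted in hypoblast-like and epiblast-like nuclei with no trophectoderm factor UMI, which at this depth does not show that the factor RNA was absent. No level of free RNA was measured. Among hypoblast-like nuclei, 319 had 0 UMIs of GATA2, GATA3 and TFAP2A, and in them FAM151A stood at 136 CPM, ACOT11 at 222 CPM and GPLD1 at 63.6 CPM. The 86 hypoblast-like nuclei with at least 1 such UMI had 139 CPM, 289 CPM and 75.8 CPM. Their median depth was 9622.5 UMIs against 7352 UMIs, and its part in the difference was not tested. The 57 epiblast-like nuclei without such a UMI had 51.1 CPM, 111 CPM and 14.1 CPM, and the 12 with one had 88.8 CPM, 114 CPM and 38.0 CPM, from 14, 18 and 6 UMIs. The epiblast-like intervals with and without a factor UMI overlapped for all 3 genes. In hypoblast-like nuclei they overlapped for FAM151A and GPLD1. For ACOT11 they did not, at 254 to 327 CPM with a factor UMI and 204 to 241 CPM without.

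Detection per nucleus gave the same order. Nuclei were thinned to 2000 UMIs so that depth was equal, which left out 4 nuclei of each trophectoderm-like class, 7 hypoblast-like nuclei and 1 unnamed nucleus. ACOT11 was then detected in 60.6% of blastocyst trophectoderm-like nuclei (exact binomial interval 54.0% to 67.0%), in 36.2% of hypoblast-like nuclei (31.5% to 41.1%) and in 21.7% of epiblast-like nuclei (12.7% to 33.3%). FAM151A was found in 44.6%, 23.1% and 7.25%, and GPLD1 in 25.5%, 9.80% and 1.45% of the same classes. In thinned blastoid trophectoderm-like nuclei ACOT11 was seen in 0 of 150, which at 3 counts of the total allows a share of nuclei with a UMI at that depth of up to 2.00%, FAM151A in 1.33% and GPLD1 in 0.667%.

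Without thinning, ACOT11 was detected in 89.4%, 69.6% and 55.1% of the blastocyst classes and in 9.74% of blastoid trophectoderm-like nuclei, although the blastoid nuclei were the deeper ones. All 3 embryo genes were present together in 110 of 235 blastocyst trophectoderm-like nuclei, and at least 1 of them was present in all but 5. In the blastoid class 127 of 154 nuclei had none of them and 0 had all 3.

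**Figure D2:**
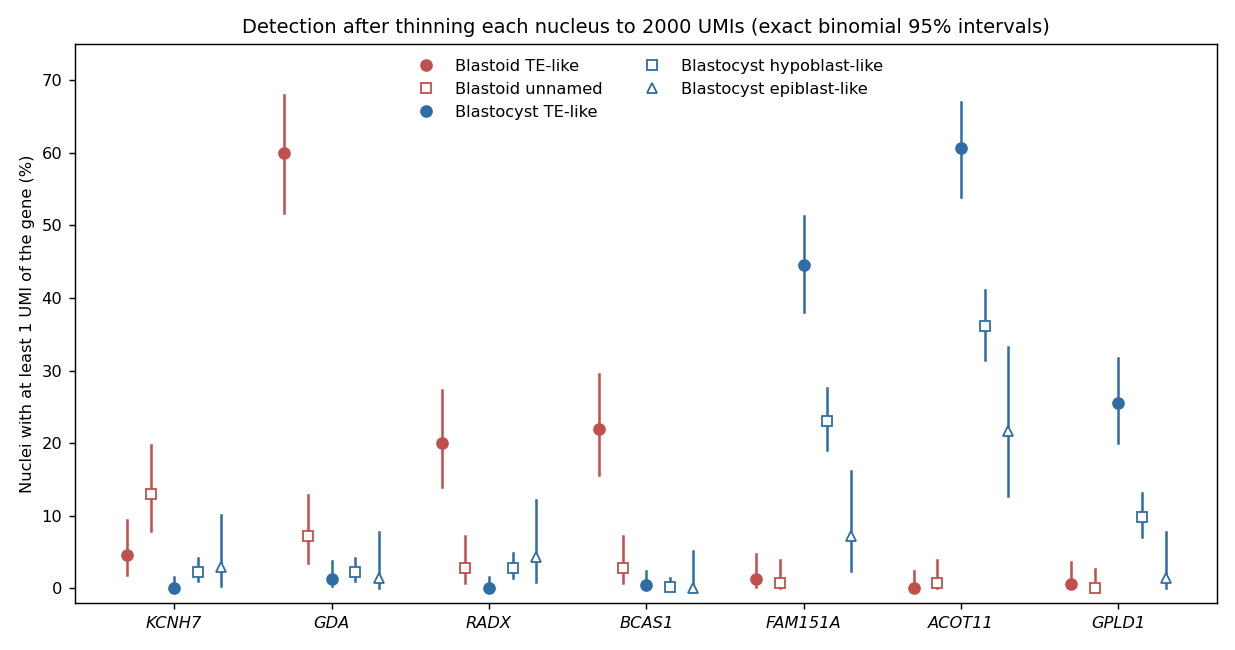
Share of nuclei with at least 1 UMI of each gene after each nucleus was thinned to 2000 UMIs, with exact binomial 95% intervals; filled circles are trophectoderm-like nuclei, open squares the unnamed blastoid or hypoblast-like blastocyst nuclei and open triangles epiblast-like nuclei. GDA reaches 60.0% of blastoid trophectoderm-like nuclei and ACOT11 60.6% of blastocyst ones, while KCNH7 is seen in only 4.67% of blastoid trophectoderm-like nuclei and in 12.9% of the unnamed ones.

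Of the genes high in the blastoid, GDA was the most widely detected. GDA (ENSBTAG00000011545) had 1676 UMIs in blastoid trophectoderm-like nuclei, or 693 CPM (660 to 727), with a median of 6 UMIs per nucleus and 129 of 154 nuclei positive. The unnamed nuclei stood at 152 CPM and the shallow barcodes at 53.7 CPM. In the blastocyst it had 15 UMIs in trophectoderm-like, 30 in hypoblast-like, 4 in epiblast-like nuclei and 2 in shallow barcodes, or 6.48 CPM, 8.85 CPM, 5.51 CPM and 4.75 CPM. Those 4 blastocyst intervals overlapped, so no embryonic class stood out for GDA.

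Outside the trophectoderm-like class, GDA was higher in nuclei with trophectoderm factor UMIs, mostly through 5 nuclei. The 65 unnamed blastoid nuclei with at least 1 UMI of GATA2, GATA3 or TFAP2A had 258 CPM of GDA, and the 75 without had 25.5 CPM, a ratio of 10.1 (6.55 to 16.4). Their median depths were 12903 and 10404 UMIs. Among the unnamed nuclei 5 held 72.7% of the GDA UMIs, and 2 of these, with 59451 and 51033 UMIs in all, held 70 and 58 of 289. All 5 had a factor UMI, and without them the levels with and without one were 69.2 CPM and 25.5 CPM, a ratio of 2.71 (1.63 to 4.66). Unnamed nuclei carried 22.0% of the trophectoderm-like level of GDA (19.3% to 24.9%), beside 14.3% for GATA2, 13.8% for GATA3 and 17.6% for TFAP2A, and the part of trophectoderm-type RNA in it was not tested. Without the 3 unnamed barcodes over 40000 UMIs the level there was 91.8 CPM. After thinning, GDA was detected in 60.0% of trophectoderm-like nuclei (51.7% to 67.9%) and 7.19% of unnamed ones (3.50% to 12.8%), against 1.30% in blastocyst trophectoderm-like nuclei.

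BCAS1, like GDA, was spread over most trophectoderm-like nuclei of the blastoid. BCAS1 (ENSBTAG00000000835) had 325 UMIs in blastoid trophectoderm-like nuclei, or 134 CPM (120 to 150), spread over 97 of 154 nuclei with no more than 11 UMIs in any of them. Unnamed nuclei had 21.6 CPM and shallow barcodes 38.9 CPM. In the blastocyst, 3 UMIs were counted in trophectoderm-like nuclei, all in 1 nucleus, and 3 in hypoblast-like nuclei, with 0 in the other classes. Unnamed nuclei with a trophectoderm factor UMI had 35.8 CPM and those without 4.64 CPM, the latter from 4 UMIs. Without the 5 unnamed nuclei with the most, 9 and 4 UMIs remained, a ratio of 2.28 (0.637 to 10.1). The unnamed level was 16.1% of the trophectoderm-like one (11.3% to 22.3%), an interval that includes all 3 factors.

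RADX (ENSBTAG00000003668) had 332 UMIs in blastoid trophectoderm-like nuclei, or 137 CPM (123 to 153), in 81 of 154 nuclei. The 5 nuclei with the most held 36.4% of these UMIs, and 93.1 CPM remained without them. Unnamed nuclei stood at 10.5 CPM (6.44 to 16.3) from 20 UMIs, 9 of them in 1 nucleus, and shallow barcodes at 28.7 CPM. The embryo showed the opposite order. Trophectoderm-like nuclei had 3 UMIs, or 1.30 CPM (0.267 to 3.79), whereas hypoblast-like nuclei had 60 UMIs or 17.7 CPM (13.5 to 22.8) and epiblast-like nuclei 22 UMIs or 30.3 CPM (19.0 to 45.9).

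The 3 blastocyst trophectoderm-like UMIs of RADX lay in 1 nucleus with no trophectoderm factor UMI, and the 228 nuclei with such a UMI had 0. Hypoblast-like nuclei thus carried 13.7 times the trophectoderm-like level in the embryo (4.45 to 68.1), and unnamed nuclei 7.68% of it in the blastoid (4.63% to 12.1%). The trophectoderm-like values are those by which RADX was chosen, so this order is a description.

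KCNH7 (ENSBTAG00000001899) differed from the other 3 in how its UMIs were spread. Its 813 UMIs in blastoid trophectoderm-like nuclei gave 336 CPM, but only 26 of 154 nuclei had any, and 4 nuclei held 494, 143, 94 and 39. Those 4 nuclei together had 2 UMIs of GATA2, 0 of GATA3 and 2 of TFAP2A. GATA2 stood at 23.6 CPM in them and 347 CPM in the other 150, and LRP2, the endocytic receptor megalin, at 448 CPM against 3731 CPM. FN1, which encodes fibronectin, went the other way, at 3218 CPM against 84.8 CPM, and the neural cell adhesion gene NCAM1 had 110 UMIs, all in the first nucleus. FN1, NCAM1 and LRP2 were looked up here after the KCNH7 values had been seen.

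Without those 4 nuclei KCNH7 had 43 UMIs in 150 nuclei, or 18.4 CPM (13.3 to 24.8). These nuclei were picked by their KCNH7 UMIs, so the value is a description. The unnamed blastoid nuclei stood at 133 CPM (117 to 150) from 252 UMIs in 58 of 140 nuclei, none with over 18. With the 5 nuclei with the most left out of each class, the trophectoderm-like level was 13.8 CPM and the unnamed level 100.3 CPM. Unnamed nuclei with and without a trophectoderm factor UMI had 132 CPM and 135 CPM of KCNH7, a ratio of 0.978 (0.758 to 1.26), an interval that includes 1. The shallow barcodes had 10.1 CPM. In the blastocyst, KCNH7 had 4 UMIs or 1.73 CPM in trophectoderm-like nuclei, 35 UMIs or 10.3 CPM in hypoblast-like, 7 UMIs or 9.65 CPM in epiblast-like nuclei and 2 UMIs in shallow barcodes.

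The unnamed nuclei were also the class with the most neural marker RNA. The summed level of 18 neural markers was 2275 CPM there, with SOX1, SOX10, MAG, OLIG1 and OLIG2 at 0, and 262 CPM in blastoid trophectoderm-like nuclei and 726 CPM in shallow blastoid barcodes. It lay between 79.1 CPM and 186 CPM in the blastocyst classes. NCAM1 (1319 CPM in the unnamed nuclei), SYT1 and STMN2 led the sum in the unnamed nuclei, and STMN2 also led it in the shallow barcodes. The part of neural-type RNA in the KCNH7 level was not tested.

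**Figure D3:**
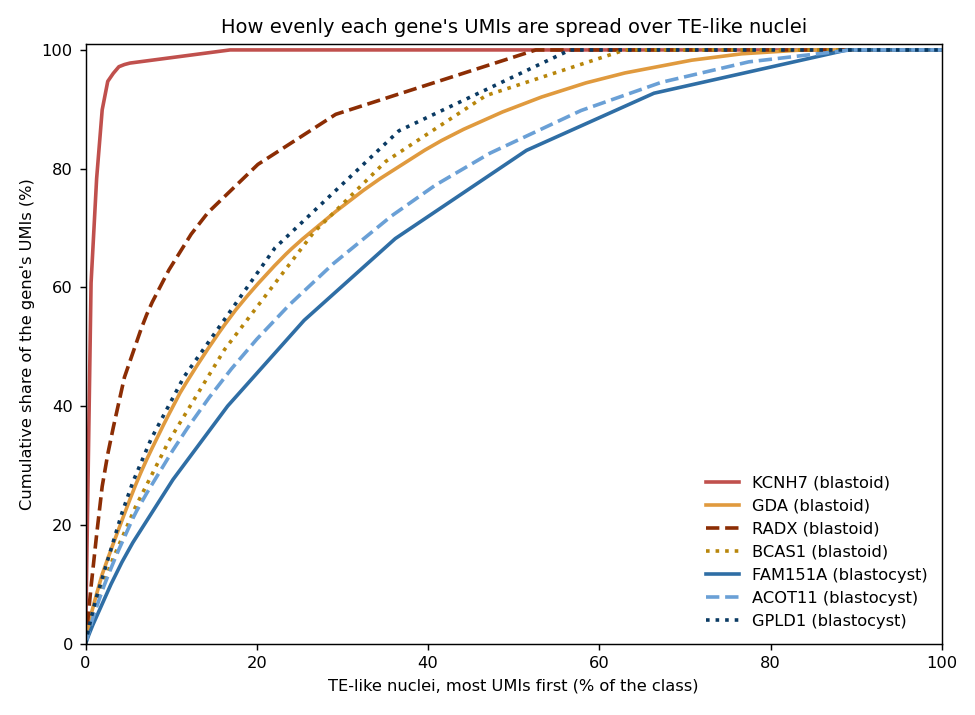
Cumulative share of each gene's UMIs over trophectoderm-like nuclei ordered from the most UMIs to the fewest, in the library where the gene is high. The KCNH7 curve reaches 94.7% with 4 of 154 nuclei, whereas the 5 nuclei with the most hold 16.9% of GDA, 36.4% of RADX and 7.29% of FAM151A.

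Ratios between the libraries put these levels together. In trophectoderm-like nuclei KCNH7 was 194-fold higher in the blastoid (75.6 to 715), GDA 107-fold (64.6 to 191), RADX 106-fold (35.9 to 516) and BCAS1 104-fold (35.1 to 505). Without the 4 nuclei KCNH7 was 10.7-fold higher (3.87 to 40.9). FAM151A was 109-fold lower (52.4 to 271), ACOT11 91.0-fold lower (55.8 to 160) and GPLD1 60.1-fold lower (27.3 to 165). All 7 exceeded 4-fold, by choice, beside 7.12% of the 15014 genes with at least 10 UMIs over both sums that were that much higher and 4.88% that were lower. The median log2 ratio of these genes was 0.09. With ranking limited to genes of at least 100 UMIs and 50 CPM, SULT1E1 ranked between KCNH7 and GDA. BCAS1 at a log2 ratio of 6.69 was the last member inside the highest 5, and PTGDS at 6.19 was the first gene outside. At the low end GPLD1 at -5.91 was just inside and MYBPC3 at -5.78 just outside.

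Outside the class, deep nuclei were compared as unnamed blastoid against hypoblast-like plus epiblast-like blastocyst nuclei. These are different populations, and the name of the blastoid nuclei was not settled. The same 140 nuclei were hypoblast-like when markers counted from 20 UMIs with a ribosomal limit of 10%, and with at least 4000 UMIs per barcode a cluster of 141 nuclei was neural-like. FAM151A was 117-fold lower in the blastoid (32.2 to 967) from 2 blastoid UMIs, ACOT11 82.0-fold (35.0 to 253) and GPLD1 27.6-fold (10.7 to 102). BCAS1 was 29.7-fold higher (9.46 to 150), GDA 18.4-fold (12.9 to 27.2) and KCNH7 13.0-fold (9.36 to 18.5). Without the 5 nuclei with the most UMIs of the gene in each library, GDA stood at 46.9 CPM against 6.13 CPM (log2 ratio 2.93) and BCAS1 at 7.59 CPM, from 13 UMIs, against 0 UMIs. As the members were chosen for extreme trophectoderm-like ratios, a smaller ratio elsewhere is not read as a result. RADX was at 0.529 times the blastocyst level (0.307 to 0.871). In this comparison 3 members were at least 4-fold higher and 3 at least 4-fold lower, where 12.4% and 6.71% of 16508 genes were.

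When the comparison was limited to deep nuclei outside the class with 0 UMIs of the 3 trophectoderm factors, 75 in the blastoid and 376 in the blastocyst, the genes stood as follows. FAM151A, ACOT11 and GPLD1 had 2, 1 and 2 UMIs in the blastoid against 374, 624 and 169 in the blastocyst. KCNH7 kept a ratio of 11.6 (7.91 to 17.3). GDA was at 3.04 (1.64 to 5.58), and BCAS1 at 4.79 (0.811 to 32.7) rested on 4 against 3 UMIs, a difference not detectable at this depth. RADX stood at 0.337 (0.119 to 0.775).

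**Figure D4:**
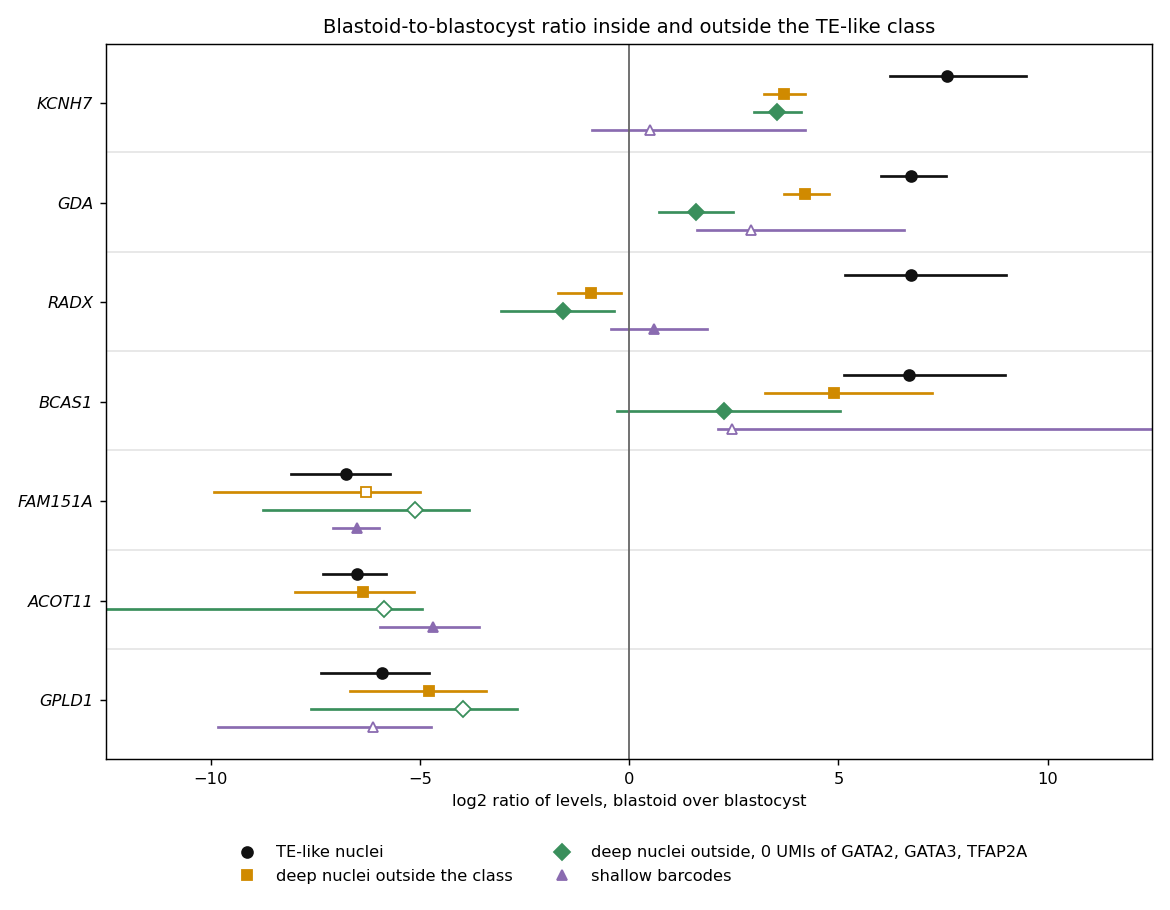
log2 ratio of levels, blastoid over blastocyst, with exact conditional 95% intervals, in trophectoderm-like nuclei (circles), deep nuclei outside the class (squares), the same without trophectoderm factor UMIs (diamonds) and shallow barcodes (triangles); open symbols had fewer than 3 UMIs on one side, which were set to 3, and intervals that run past the axis end at its edge. The lower 3 genes lie to the left of 0 in all 4 comparisons, and RADX lies at -0.92 and -1.57 in both sets of deep nuclei outside the class; the circles are the values that chose the genes.

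Shallow barcodes were compared as well. Members at least 4-fold higher numbered 2 there, GDA and BCAS1, beside 4.11% of 13586 genes, and 3 were at least 4-fold lower beside 12.6%. BCAS1 with 123 UMIs against 0 was at least 5.46-fold higher, with the floor of 3 UMIs in the whole class. KCNH7 at 2.13 (0.543 to 18.3) and RADX at 1.51 (0.737 to 3.61) had intervals that include 1. Over whole libraries the counts were 4 and 3, beside 11.2% and 7.48% of 19218 genes.

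The other genes of the members' pathways mostly did not share the gap. Of 63 tested genes in 7 lists, 2 were at least 4-fold higher in blastoid trophectoderm-like nuclei (3.17%) and 4 at least 4-fold lower (6.35%), beside the 7.12% and 4.88% over all genes. Around GDA, 1 of 11 purine genes was higher and 2 lower. NT5E, which makes adenosine from AMP, stood at 29.8 CPM against 7.35 CPM, AMPD3 (AMP deaminase) at 6.20 CPM against 26.8 CPM, and XDH, which oxidises the xanthine that GDA makes, at 2 UMIs against 17. The list median was a log2 ratio of 0.65.

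None of 13 replication fork genes listed with RADX passed 4-fold in either direction, and their median was 0.17. RPA1, a subunit of the main single-strand binding complex, had 56.2 CPM against 55.8 CPM. Of 2 tested oligodendrocyte genes listed with BCAS1, neither passed: MBP stood at 40.9 CPM against 47.5 CPM and ENPP6 at 14.9 CPM against 5.19 CPM, while MAG, OLIG1 and OLIG2 had 0 UMIs in both classes. FAM151B, the only other listed FAM151 gene, had 24 UMIs against 18.

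Among 8 tested acyl-CoA thioesterases beside ACOT11, 1 was higher and 0 lower, with a median of 0.36. The higher one was ACOT12, a cytosolic acetyl-CoA hydrolase, with 31 UMIs against 1. THEM4 stood at 228 CPM against 68.7 CPM, under 4-fold, so no other thioesterase tested shared the direction of ACOT11 past 4-fold. Of 25 genes that build or release GPI anchors, 0 were higher and 2 lower, with a median of -0.04. Both lower genes are glycerophosphodiester phosphodiesterases, as the list holds GPI-releasing enzymes as well as assembly genes: GDPD2 had 7.85 CPM against 118 CPM and GDPD5 20.3 CPM against 88.6 CPM. PGAP1, which remodels newly made anchors, had 269.9 CPM against 133 CPM.

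The ether-a-go-go channels differed by class. In trophectoderm-like nuclei 0 of 3 tested channels other than KCNH7 passed 4-fold, with a median of 0.52. Outside the class 3 of 5 were at least 4-fold higher in the blastoid and 1 lower, where 12.4% and 6.71% of all genes were. KCNH8 stood at 164 CPM against 20.2 CPM, KCNH5 at 40.6 CPM against 6.56 CPM and KCNH1 at 27.4 CPM against 5.35 CPM. KCNH6 had 0 UMIs against 80 and was at least 12.3-fold lower, with the floor of 3 UMIs in the class. In the other 6 lists outside the class, 1 of 10 purine genes was higher and 1 lower, 0 of 13 fork genes passed in either direction, and 1 of 8 thioesterases was higher. Of 25 GPI genes 1 was higher and 1 lower, of 2 oligodendrocyte genes 1 was higher, and FAM151B did not pass. These are class sums, and whether single nuclei held several of the channels was not examined.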

How the data were processed

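The values deposited by the authors are whole UMI counts, unnormalized, for each barcode and gene. Per the file headers, Cell Ranger 7.2.0 wrote them. The submitters' processing notes name Cell Ranger 7.1.0 and Seurat 4.3.0. The genome build and the strand setting are not given in the sources used here. Barcodes with at least 500 genes and under 10% mitochondrial UMIs were kept, and the highest Scrublet scores were removed (30 blastoid and 6 blastocyst barcodes). Each library was clustered alone (scanpy 1.11.5, leidenalg 0.10.2, resolution 0.5) without the marker genes and members. Markers counted from 100 UMIs and 1.5 times the CPM of other clusters. A class needed at least 3 markers and more than any other class. Clusters with over 5% ribosomal protein UMIs or a median under 4000 UMIs were called shallow. This naming rule was chosen after the data were seen. The members and lists were chosen with earlier results of these data known.

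UMIs were summed per class, with exact Poisson, conditional or Clopper-Pearson 95% intervals, and counts under 3 were set to 3 for log2 ratios. No test was possible. The trophectoderm-like ratio was tested on simulated counts of 7401 genes. Of 200 genes set 4-fold apart, 100% came out in the right direction, and 95.7% of true ratios lay inside their intervals. The simulated counts were Poisson draws without spread between nuclei or libraries, which is what the intervals assume. The simulation thus checks the calculation only, not whether the intervals cover such spread. Named genes were the members, list genes, markers, neighbours in the RefSeq order of ARS-UCD2.0, the 3 most similar genes per member, and genes at the ranking limits. Neural, fibroblast and mesoderm markers were summed per class, and no class exceeded 80.7 CPM for 11 fibroblast or 13.9 CPM for 9 mesoderm markers. No sequences or coordinates are printed. Alternatives covered filters, clustering, naming, thinning and left-out nuclei.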

Additional observations from a re-analysis of the deposited data

Results flagged for a closer look

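RADX went in opposite directions in the 2 kinds of nuclei. Its log2 ratio of blastoid over blastocyst was 6.73 in trophectoderm-like nuclei and -0.92 in deep nuclei outside that class. Under 2 other naming rules, which put the blastoid trophectoderm-like cluster itself outside, the latter was 2.03. With 1 library per group, the difference between these values was not tested. The value outside rests on 20 blastoid and 82 blastocyst UMIs, and 9 of the 20 lay in 1 nucleus with 4 trophectoderm factor UMIs.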

How the results depend on the processing

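Of the log2 ratios in trophectoderm-like nuclei under other settings, 91 stayed inside the interval of the reported value and 8 moved. Outside the class 100 stayed, 17 moved and 2 reversed. The 68 counts of members past 4-fold in the class and in deep nuclei outside it stayed within 1.5 times, at 2-fold and 10-fold too. In shallow barcodes the 2 members past 4-fold higher became 0 at 10-fold. No paired analysis was possible because each group had 1 library. The cause of the shifts was not tested, except that thinning to 2000 UMIs puts sums under 3 at the floor. Leaving out nuclei or barcodes, restricting nuclei by factor UMIs and the rule of 2 times as many markers were chosen after seeing the data.

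Thinned, the trophectoderm-like log2 ratio was 5.29 for KCNH7, 4.32 for RADX, 4.40 for BCAS1, -4.93 for FAM151A and -3.81 for GPLD1. Outside it was 3.43 for GDA, 2.49 for BCAS1, -3.47 for FAM151A, -4.45 for ACOT11 and -2.37 for GPLD1. Without the 5 nuclei with the most UMIs of the gene, the class values were 3.37 for KCNH7 and 7.63 for GDA, and those outside 2.93 for GDA and -2.61 for RADX. KCNH7 was 3.41 without 4 blastoid nuclei. GDA outside was 3.47 without barcodes over 40000 UMIs. With nuclei assigned by GATA2, GATA3 and TFAP2A UMIs, values outside were 4.97 for KCNH7, 2.33 for GDA and -1.98 for RADX. With 0 factor UMIs, GDA was 1.60 and BCAS1 2.26.

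Under markers from 20 UMIs with a ribosomal limit of 10% and no depth limit for shallow clusters, and under the rule of 2 times as many markers, the blastoid trophectoderm-like cluster had no name, so its ratios had no value and its nuclei fell outside. KCNH7 was then 4.60, GDA 5.78 and RADX 2.03 under both, a reversal for RADX. List genes past 4-fold higher numbered 1 with at least 1000 genes, 200 genes or 4000 UMIs, a 5% mitochondrial limit, no doublet removal or resolution 1.0. With at least 100 UMIs 0 were higher and 2 lower. Thinned to 1000 UMIs, shares were 40.1% for GDA, 8.55% for RADX, 7.89% for BCAS1, 26.9% for FAM151A, 43.2% for ACOT11 and 11.97% for GPLD1. With an offset of 10, 13 of 21 most similar genes were shared. SLC16A9 was then not among them, and the closest gene differed for KCNH7, BCAS1, FAM151A and GPLD1.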

Other observations

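Genes beside the members in the reference gene order were looked up. Of 42 neighbouring places, 16 matched a symbol in the files, and of 12 tested neighbours 1 was at least 4-fold higher in blastoid trophectoderm-like nuclei and 0 lower, where 7.12% and 4.88% of all genes were. The higher one was RNF128, next to RADX, with 65 UMIs against 6, or 10.4-fold (4.51 to 29.3). Outside the class RNF128 stood at 17.4 CPM against 11.9 CPM. There, of 11 tested neighbours 3 were at least 4-fold higher and 1 lower, where 12.4% and 6.71% of all genes were: PWWP3B, near RADX, at 24.3 CPM against 3.89 CPM, DOK5, near BCAS1, at 127 CPM against 11.9 CPM, GCA at 68.0 CPM against 16.3 CPM, and DCDC2, near GPLD1, at 17.4 CPM against 160.4 CPM. FAM151A and ACOT11 lie close together in that order, and of the genes around them SSBP3 had 339 CPM against 359 CPM and TTC4 31.8 CPM against 36.3 CPM. GCA, next to KCNH7, had 191 CPM against 222 CPM in the class. In the reference table a gene without a matching symbol overlaps GDA, BCAS1 and ACOT11 each, and how the authors' counting split their reads is not given in the sources used here.

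The genes whose pattern was most like a member were found by Pearson correlation of log2(CPM + 1) over the 7 classes, which share libraries and depth, among 10301 genes. As a description, SLC16A9, a monocarboxylate transporter family gene, was closest to BCAS1 at 0.995 and among the closest to GDA at 0.971, though with an offset of 10 it was among the 3 closest to neither. It stood at 198 CPM in blastoid trophectoderm-like and 7.78 CPM in blastocyst trophectoderm-like nuclei. PLCXD2 was closest to GDA at 0.990, CFAP61 to KCNH7 at 0.971 (with the 4 nuclei that set the KCNH7 level in blastoid trophectoderm-like nuclei included) and CRBN to RADX at 0.956. In the embryo-high group, C3H1orf141 was closest to ACOT11 at 0.991, with 119 CPM in blastocyst and 4.13 CPM in blastoid trophectoderm-like nuclei, NAA40 to GPLD1 at 0.989 and ETHE1 to FAM151A at 0.993.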
